A study of Mus musculus with 30 samples.

Results

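The genes described here encode proteins of neutrophil granules and of the neutrophil cytoplasm, measured by RNA-seq in microglia, the resident macrophages of the brain, that were sorted from adult mice with 2, 1 or no intact copies of *Bin1* in the microglial lineage. The 10 members are *Ngp*, *Lcn2*, *Chil3*, *S100a8*, *S100a9*, *Camp*, *Ltf*, *Retnlg*, *Mmp8* and *Elane*, out of 47643 genes in the deposited table, and 8 of them (all but *Mmp8* and *Elane*) were among the 16897 genes that entered the tests, for which the mean level had to reach 0.1 FPKM. They were chosen by name and by measured values, namely the low levels of *Ngp*, *Lcn2* and *Chil3* in male Homo against male WT mice, so the male values below are a description and carry no test. FPKM are mapped fragments scaled to transcript length and to the depth of the library, a level that is comparable between genes because it is given per length.

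Homo mice carried floxed *Bin1* on both chromosomes together with a Cre recombinase knocked into *Cx3cr1* (Bin1 flox/flox, Cx3cr1-Cre+), Het mice had a single floxed copy with the same Cre (Bin1 wt/flox, Cx3cr1-Cre+), and WT mice had a single floxed copy without Cre. The loss of *Bin1* and the presence of the Cre allele, which takes the place of a copy of *Cx3cr1*, therefore cannot be told apart in any comparison with WT. Mice were 3 months old, and microglia were isolated after perfusion by sorting for CD11b with an intermediate level of CD45, a gate that is set below the CD45 level of most blood leukocytes. Groups held 5 WT, 6 Het and 5 Homo males and 4 WT, 5 Het and 5 Homo females, with 1 library per mouse. *Cx3cr1* also drives Cre in other macrophages and in monocytes, so the deletion is not limited to microglia.

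The labels were checked with *Bin1*, which lay between 230.3 and 289.5 FPKM in the 9 WT libraries and between 39.5 and 55.6 FPKM in the 10 Homo libraries. The libraries labelled Het-F-0206 and Het-M-0199 had 42.7 and 51.8 FPKM, within the range of the Homo libraries, while the other 9 Het libraries had 117 to 164 FPKM. The library labelled Het-F-0206 also had 13.9 FPKM of *Cx3cr1* where the other Cre-carrying libraries had 610.0 to 1243 FPKM. The 10 microglial markers summed to 19746 to 28417 FPKM in every library. Depth was 6640000 to 13990000 fragments per library, rounded and estimated from the steps between low FPKM values, so that a single fragment of *Ngp* was worth 0.0825 FPKM in the median library. Mouse numbers in the labels fell into an early range (3 Homo males, 2 Het males and 1 WT female) and a late range. No WT male has an early number.

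Neutrophils fill their granules in a fixed order as they mature in the bone marrow. Azurophil granules, which hold serine proteases such as neutrophil elastase (*Elane*), come first, then specific granules with lactoferrin (*Ltf*), the cathelicidin CRAMP (*Camp*), lipocalin 2 (*Lcn2*) and neutrophilic granule protein (*Ngp*), and then gelatinase granules. *Elane* is transcribed in early precursors, before the genes of the later granules. *S100a8* and *S100a9* encode the partners of calprotectin, a very abundant cytoplasmic protein of neutrophils that is also found in monocytes. C/EBP factors are known activators of the specific granule genes.

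The windows around the start sites of *Ngp*, *Lcn2*, *Ltf* and *Elane* are printed because the members moved together across libraries. The first 3 are specific granule genes detected in most libraries, and *Elane* was detected in 1. Each holds 250 bases before and 50 bases after the start in RefSeq on GRCm38.p6, on the strand of the gene. Capitals mark the 8-base string TTGCNNAA or its reverse complement, a core that C/EBP factors are known to bind. The window of *Camp*, a specific granule gene above 0 in 22 libraries, does not hold this string and is not printed. *Ngp* lies at chr9:110419558-110419857 on the plus strand, *Lcn2* at chr2:32387690-32387989 on the minus strand, *Ltf* at chr9:111019042-111019341 on the plus strand and *Elane* at chr10:79886062-79886361 on the plus strand.
Ngp: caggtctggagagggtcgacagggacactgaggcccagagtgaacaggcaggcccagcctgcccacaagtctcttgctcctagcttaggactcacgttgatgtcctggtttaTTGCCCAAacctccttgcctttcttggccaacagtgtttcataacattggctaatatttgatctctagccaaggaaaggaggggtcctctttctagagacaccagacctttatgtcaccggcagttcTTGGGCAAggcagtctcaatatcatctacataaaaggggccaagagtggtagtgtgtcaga
Lcn2: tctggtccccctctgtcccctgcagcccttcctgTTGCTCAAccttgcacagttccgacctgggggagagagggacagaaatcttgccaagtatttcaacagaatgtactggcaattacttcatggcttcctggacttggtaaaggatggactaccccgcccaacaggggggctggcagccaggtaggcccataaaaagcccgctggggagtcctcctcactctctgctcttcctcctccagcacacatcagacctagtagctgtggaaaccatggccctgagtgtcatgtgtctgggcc
Ltf: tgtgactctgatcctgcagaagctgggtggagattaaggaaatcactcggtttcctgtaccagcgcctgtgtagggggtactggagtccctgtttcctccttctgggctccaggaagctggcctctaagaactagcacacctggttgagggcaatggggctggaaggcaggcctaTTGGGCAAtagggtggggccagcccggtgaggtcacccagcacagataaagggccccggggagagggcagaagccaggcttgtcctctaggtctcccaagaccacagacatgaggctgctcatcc
Elane: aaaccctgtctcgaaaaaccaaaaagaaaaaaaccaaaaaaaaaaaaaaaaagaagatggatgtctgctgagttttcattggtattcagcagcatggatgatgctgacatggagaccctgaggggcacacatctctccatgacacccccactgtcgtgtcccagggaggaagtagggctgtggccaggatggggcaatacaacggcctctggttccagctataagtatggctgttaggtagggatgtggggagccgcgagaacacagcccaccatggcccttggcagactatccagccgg

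The string began 138 and 11 bases before the start in *Ngp*, 216 bases before it in *Lcn2* and 75 bases before it in *Ltf*. All 10 members had a RefSeq window, and 6 of them held TTGCNNAA on either strand (*Ngp*, *Lcn2*, *Ltf*, *S100a9*, *Retnlg* and *Mmp8*), where 10.8% of the 32851 windows of all genes did. GAGGAA was held by 5 members, of which *Lcn2*, *Ltf* and *Mmp8* also held TTGCNNAA and *Elane* and *S100a8* did not. It is a core bound by PU.1 and other ETS factors, and 28.3% of all windows had it. *Chil3*, *S100a8*, *S100a9* and *Mmp8* held TATAAA, which 13.6% of windows had. These are 3 of 15 strings searched, chosen with the results in view, and the others were found in 0 to 7 members. A match describes letters and not a bound site.

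*Ngp* (ENSMUSG00000032484, chr9:110419747-110423012 on GRCm38, plus strand), a relative of the cathelicidins stored in specific granules, is described first. The locus has 4 exons, and *Camp*, *Ltf* and *Mmp8* lie on the same chromosome. WT males had 26.1, 10.998, 8.10, 24.6 and 9.20 FPKM, each from at least 111 fragments. Homo males had 0, 0.0923, 2.42, 0 and 0 FPKM, of which the second value is 1 fragment and the third, from library Homo-M-0109, is 27 fragments. The lowest WT male was above the highest Homo male, and the means were 15.8 ± 8.81 (SD, n = 5) and 0.502 ± 1.07 FPKM (SD, n = 5). A count of 0 in the Homo male libraries allows a level of up to 0.370 FPKM in the shallowest of the 3 libraries at 0, where 3 fragments are taken as the limit, for counting error only. Het males lay between, with a lowest value of 0, a median of 1.59 and a highest of 4.34 FPKM, all below the lowest WT male. In bulk samples fewer cells of a type and less RNA per cell cannot be told apart.

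In females *Ngp* was 4.01, 33.3, 15.7 and 1.397 FPKM in WT, 6.47, 5.98, 1.21, 0 and 13.2 FPKM in Het, and 0, 0.189, 12.7, 0.816 and 3.04 FPKM in Homo mice. All 3 female groups overlapped. The order of the group medians was WT (9.84 FPKM), Het (5.98 FPKM) and Homo (0.816 FPKM), the same as in males.

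**Figure D1:**
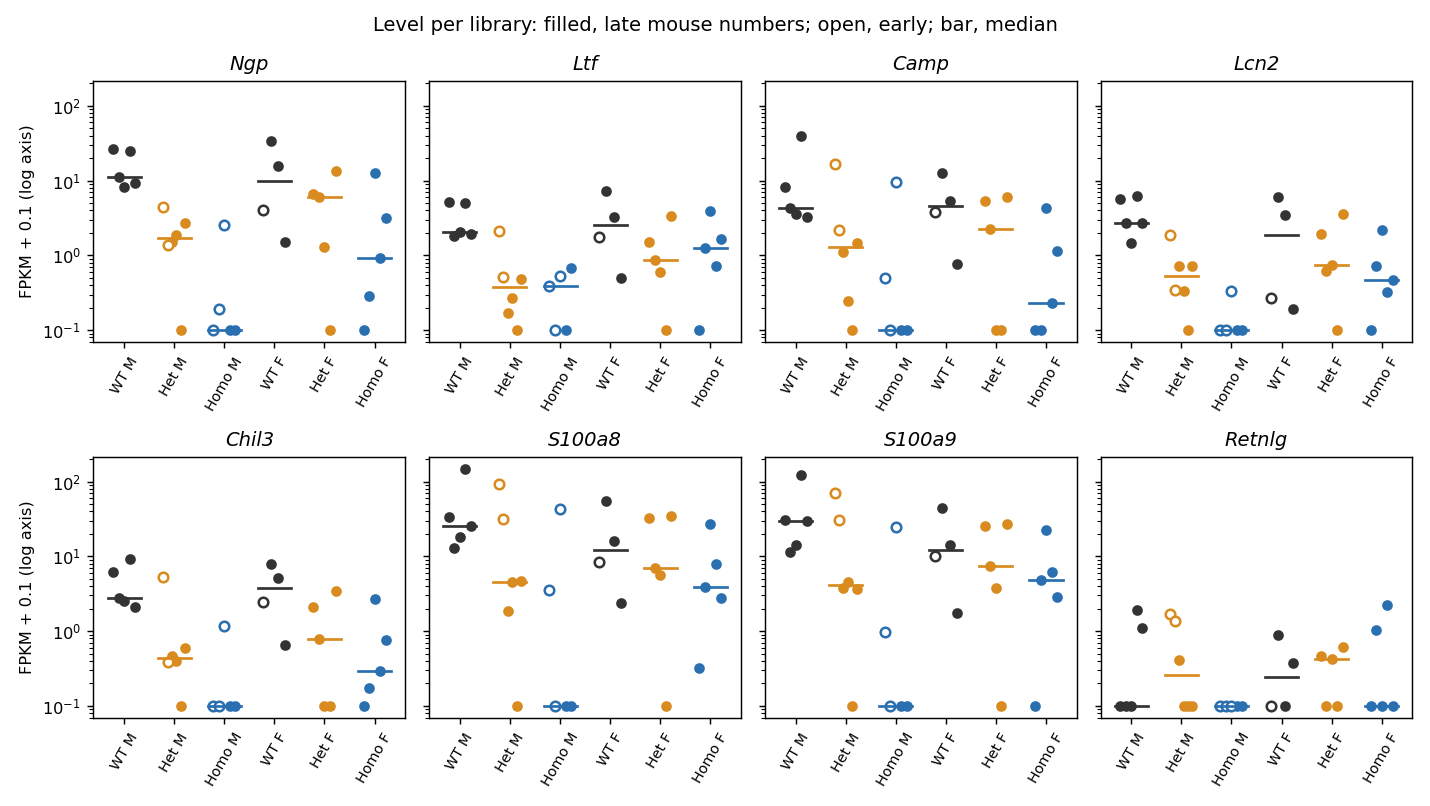
Level of the 8 tested genes in each library, as FPKM + 0.1 on a log axis, by group of genotype and sex. Filled points are mice with late numbers, open points are mice with early numbers and bars are group medians. Male Homo points sit at the floor for *Ngp* except for a single fragment in 1 library and for Homo-M-0109, whose *S100a8*, *S100a9* and *Camp* reach the WT range.

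*Ltf*, the iron-binding lactoferrin, was 5.10, 1.74, 1.97, 4.92 and 1.85 FPKM in WT males and 0.295, 0, 0.429, 0 and 0.575 FPKM in Homo males, again without overlap. Homo-M-0190 had *Ltf* at 0.575 FPKM and every other member at 0. *Ltf* has 12 transcripts in the annotation, so its values could not be read back as whole fragments. *Lcn2*, which binds bacterial siderophores, was 1.38 to 6.19 FPKM in WT males and was above 0 in a single Homo male, Homo-M-0109, at 0.239 FPKM. *Chil3*, a chitinase-like lectin with close relatives to which shared reads may be assigned, behaved in the same way, with 1.97 to 8.98 FPKM in WT males and 1.07 FPKM in Homo-M-0109 alone.

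*Camp* encodes the antimicrobial peptide precursor CRAMP. It was 8.01, 4.23, 3.53, 39.4 and 3.21 FPKM in WT males and 0.397, 0, 9.54, 0 and 0 FPKM in Homo males. The 9.54 FPKM of Homo-M-0109, from 66 fragments, exceeded 4 of the 5 WT males, so the groups overlapped. WT-M-0202 stood above the other WT males by the gap from 8.01 to 39.4 FPKM.

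*S100a8* (chr3:90668978-90670035, plus strand) and *S100a9* (chr3:90692632-90695721, minus strand) were the most abundant members, with means of 20.7 and 17.2 FPKM over all 30 libraries. *S100a8* was 33.04, 12.8, 17.8, 149 and 25.2 FPKM in WT males and 3.41, 0, 43.5, 0 and 0 FPKM in Homo males. The value of 43.5 FPKM in Homo-M-0109 was above 4 of the 5 WT males. *S100a9* followed it, at 11.4 to 123 FPKM in WT males and at 0.882, 0, 24.6, 0 and 0 FPKM in Homo males. Het males ran from 0 to 92.7 FPKM of *S100a8* with a median of 4.49 FPKM, and the 2 highest, at 92.7 and 31.5 FPKM, were the 2 with early numbers. In females the medians of *S100a8* were 12.1 FPKM in WT, 6.83 FPKM in Het and 3.80 FPKM in Homo mice, with ranges of 2.28 to 54.6, 0 to 34.6 and 0.219 to 27.2 FPKM that overlap almost completely.

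The remaining members were near the limit of detection. *Retnlg*, a resistin-like secreted protein of mature neutrophils, was 0 in 18 of 30 libraries and reached 2.13 FPKM, or 13 fragments, in Homo-F-0234. In males it was above 0 in 2 of 5 WT, 3 of 6 Het and 0 of 5 Homo libraries, where 0 allows a level of up to 0.743 FPKM in the shallowest, and no fold is given against a group at 0. *Mmp8*, the neutrophil collagenase, was 0 in 19 libraries and its highest level was 0.569 FPKM, from 14 fragments in the same female. *Elane* was 0 in 29 libraries, and its only signal was 1 fragment in Het-M-0100, at 0.152 FPKM.

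The count of members present also differed between libraries. Each of the 9 WT libraries had between 7 and 9 of the 10 members above 0. Het-F-0220, Het-M-0203 and Homo-M-0189 had 0 of 10, at depths of 9970000, 7220000 and 9240000 fragments, and Homo-M-0097, Homo-M-0190 and Homo-F-0193 had 1 of 10. The summed level of the members ran from 46.5 to 358 FPKM in WT males, from 0 to 195 FPKM in Het males and from 0 to 81.8 FPKM in Homo males, of which 4 had less than 5 FPKM. In females the sums were 7.35 to 166 FPKM in WT, 0 to 91.6 FPKM in Het and 0.219 to 74.7 FPKM in Homo mice.

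**Figure D2:**
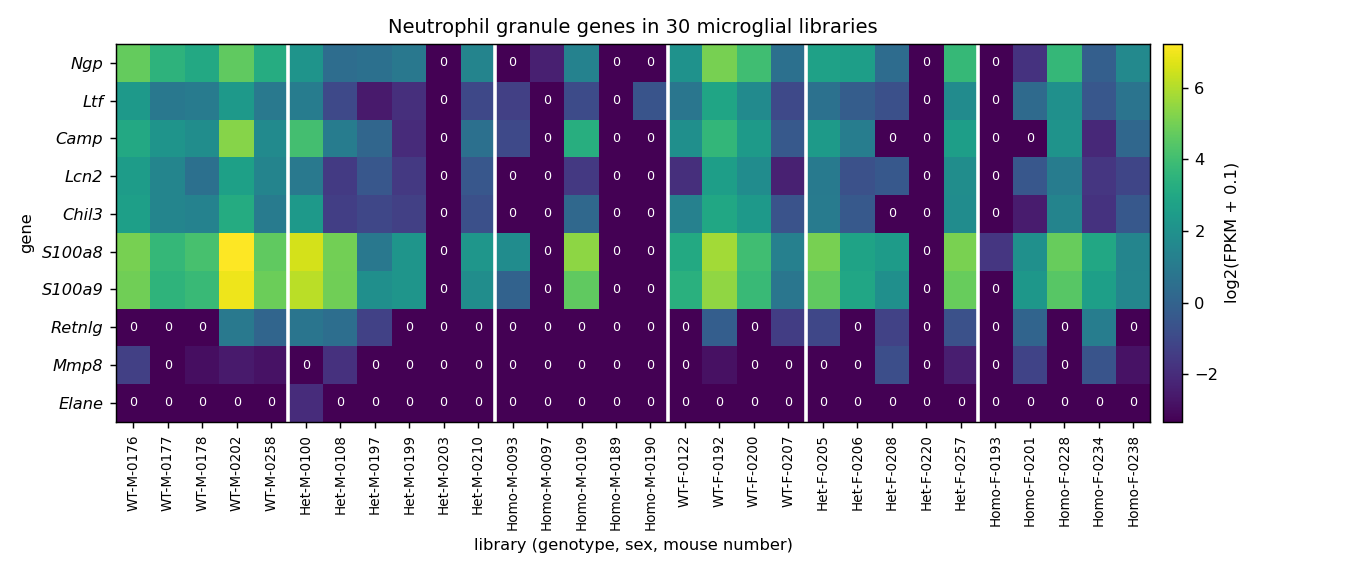
Level of the 10 members in the 30 libraries as log2(FPKM + 0.1), with white lines between the 6 groups and the digit 0 where a gene is listed at 0. Most columns are bright or dark over the first 7 rows as a whole, 3 columns are 0 throughout, and *Retnlg*, *Mmp8* and *Elane* are dark in most columns.

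In males the estimates from limma, on the log2(FPKM + 0.1) scale, put *Ngp* at -6.07 (SE 1.23), *S100a9* at -5.97 (SE 1.63), *S100a8* at -5.57 (SE 1.68), *Lcn2* at -4.73 (SE 0.924), *Chil3* at -4.59 (SE 1.02), *Camp* at -4.42 (SE 1.39) and *Ltf* at -3.48 (SE 0.903) for Homo against WT. All 7 were more than 1.5-fold lower, where 5.53% of all genes were, and their median was -4.73, against 0.03 for all genes. *Retnlg* is left out, since it is at 0 in every Homo male and its estimate is set by the pseudocount. The groups did not overlap for 4 of them (*Ngp*, *Lcn2*, *Chil3* and *Ltf*), where 1.37% of all genes were lower without overlap. These figures come from the comparison that chose the genes, and nothing is read from them beyond the values.

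The estimates rest on few libraries. Without Homo-M-0109, *Ngp* was at -6.92, *S100a8* at -7.05, *S100a9* at -7.36 and *Camp* at -5.59. With late numbers alone, which leaves 2 Homo males, *Ngp* was at -7.12 and *S100a8* at -8.27. Their size also follows the pseudocount, and *Ngp* ran from -8.25 with a pseudocount of 0.01 to -3.57 with a pseudocount of 1.

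Het males share the WT males with that comparison and are described in the same way. *Ngp* was at -3.49 (SE 1.18), *Ltf* at -3.02 (SE 0.864) and *Chil3* at -2.89 (SE 0.972), and *Retnlg* was at 0.07 (SE 0.953). The members past a 1.5-fold fall numbered 7 of 8, with 4.84% of all genes. The median of all 8 was -2.80, against 0.01 for all genes. *Ngp* alone did not overlap with WT, and 0.326% of all genes were lower without overlap. Without the library labelled Het-M-0199, *Ngp* was at -3.61.

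Females were not used to choose the genes and give the test of whether the members differ with genotype. In Homo against WT females *Camp* was at -3.20 (SE 1.47), *Ngp* at -2.90 (SE 1.31), *Chil3* at -2.82 (SE 1.08), *S100a9* at -1.87 (SE 1.73), *S100a8* at -1.62 (SE 1.78), *Ltf* at -1.26 (SE 0.958), *Lcn2* at -1.12 (SE 0.981) and *Retnlg* at 0.29 (SE 1.06). None of the 8 passed limma's test at an adjusted p below 0.05 with a 1.5-fold change, which 0.071% of all genes did, and 3 of 8 (*Chil3*, *Ngp* and *Camp*) had an unadjusted p below 0.05, as 3.49% of all genes had. The 7 members other than *Retnlg* were more than 1.5-fold lower, with 4.86% of all genes. Their median was -1.87, and that of all 8 was -1.74, against 0.00 for all genes. The differences were within the spread between mice for a call at this threshold, and a p that misses the threshold does not show that the levels are alike.

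In Het against WT females the median of the members was -1.36 and 6 of 8 were more than 1.5-fold lower, with 4.96% of all genes. *Chil3*, at -2.36 (SE 1.08), was the only member with an unadjusted p below 0.05, as 3.95% of all genes had, and 0 of 8 passed the adjusted test of limma, which 0.13% of all genes did. Without the library labelled Het-F-0206, *Ngp* moved from -1.71 to -2.06 and 0 of 8 passed. In Homo against Het females, which both carry the Cre, the median was -0.58 and *Ngp* was at -1.19 (SE 1.23). In that comparison 4 of 8 were more than 1.5-fold lower, with 4.51% of all genes. None passed limma's adjusted test, which 0.0118% of all genes did, or had an unadjusted p below 0.05, as 2.06% of all genes had.

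Two-sided exact permutation tests of the mean FPKM, for the 9 members detected in females, gave 0 of 27 unadjusted p-values below 0.05 over the 3 comparisons. The lowest was 0.0794, for *Chil3* and for *Camp* in Homo against WT females. *Chil3* averaged 0.705 FPKM in 5 Homo and 3.91 FPKM in 4 WT females, and *Camp* averaged 1.08 and 5.51 FPKM. The smallest p that 5 mice against 4 can give in the exact test is 0.0159. The sexes were not compared by a test of the interaction, since the male comparison chose the genes.

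**Figure D3:**
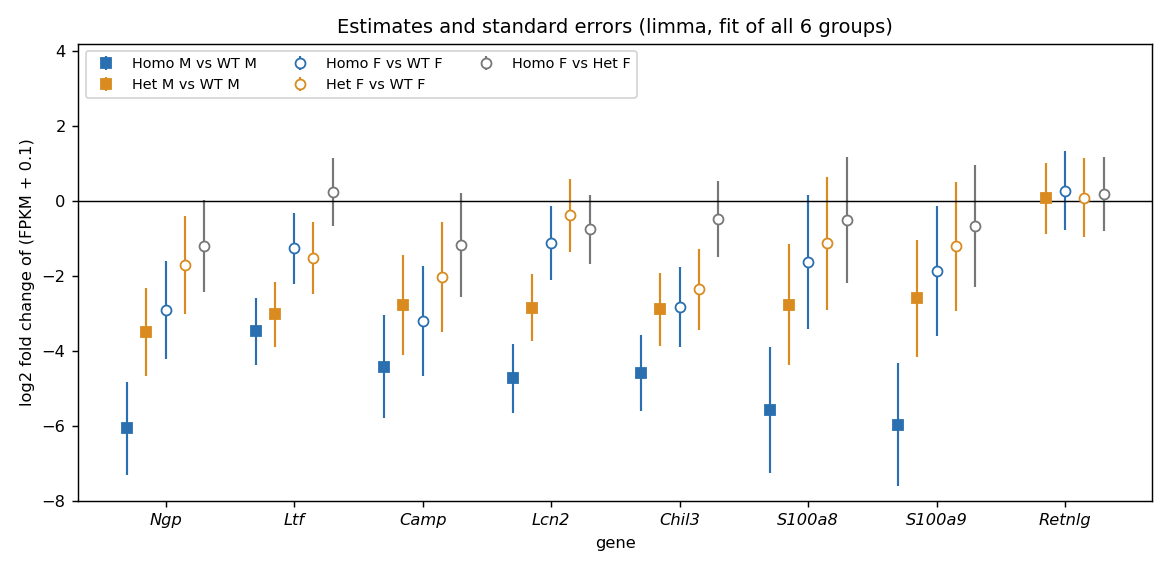
Estimated log2 fold change of (FPKM + 0.1) with its standard error for the 8 tested genes in the 5 comparisons. Filled squares are the male comparisons, which are a description, and open circles are the female ones. Most estimates lie below 0 and the female bars are long, and *Retnlg* lies just above 0 in the 4 comparisons plotted for it, with a sign that other settings turn. It is not plotted for Homo against WT males, where every Homo male is at 0.

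Whether the granule genes vary together was asked over the 14 female libraries. The 21 pairs among *Ngp*, *Ltf*, *Camp*, *Lcn2*, *Chil3*, *S100a8* and *S100a9* had Pearson's r between 0.735 and 0.985 with a median of 0.880, and Spearman's rho between 0.745 and 0.990. Every pair had a permutation p below 0.05, the highest being 0.00417 for r and 0.00323 for rho, unadjusted over 28 pairs. Without the 2 libraries farthest from the median of the first gene, r was 0.617 to 0.982. The closest pairs were *S100a8* with *S100a9* (r = 0.98) and *Chil3* with *Camp* (r = 0.98), and the loosest was *Lcn2* with *Camp* (r = 0.73).

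*Retnlg* stood apart from them. Its 7 pairs had r between -0.100 and 0.369, and none had a permutation p below 0.05, the lowest being 0.195 for r and 0.220 for rho. With *Retnlg* at 0 in 7 of the 14 females, few levels were there to compare. Deviations from the group means, which take out any difference between genotypes, gave r of 0.738 to 0.985 for the 21 pairs, so the members also varied together among mice of the same group. The same pairs had r of 0.744 to 0.988 without the library labelled Het-F-0206 and 0.785 to 0.986 in the 13 females with late numbers. All 30 libraries gave 0.786 to 0.986, a description that includes the males that chose the genes. Points share their library and its depth, and the r of *Ngp* with depth was 0.13 in females and 0.31 over all 30 libraries.

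**Figure D4:**
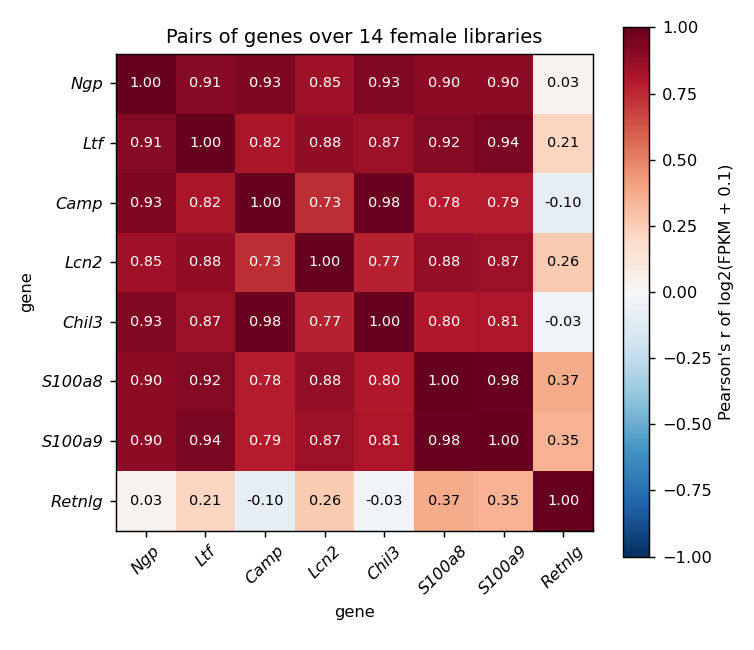
Pearson's r of log2(FPKM + 0.1) between each pair of the 8 tested genes over the 14 female libraries, on a scale from -1 (blue) to 1 (red). The 7 upper genes form a red block between 0.73 and 0.98, and the row of *Retnlg* stays between -0.10 and 0.37.

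The members did not keep a fixed ratio. In the 22 libraries with at least 10 *Ngp* fragments, *S100a8* per *Ngp*, as a ratio of FPKM, ran from 0.883 to 24.6 with a median of 2.16, while *S100a9* per *S100a8* ran from 0.567 to 2.11 only. The 3 highest ratios of *S100a8* to *Ngp* were 24.6 in Het-M-0108, 21.4 in Het-M-0100 and 18.0 in Homo-M-0109, each from more than 100 fragments of *S100a8*. Their *Ngp* counts were low, at 14, 38 and 27 fragments in that order, which limits the precision of the ratios. All 3 libraries are from males with early numbers. The other early library of the 22, WT-F-0122, had 2.09, and the 18 late libraries had 0.883 to 9.55. *Camp* per *Ngp* was also highest in these 3 males, at 1.61 to 3.94, where the late libraries had 0 to 1.60. *Lcn2* per *Ngp* was not, at 0.0989 to 0.414 in the 3 males and 0.0673 to 0.534 in the late libraries. No WT male has an early number, so the ratio in WT males is known for late numbers only.

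**Figure D5:**
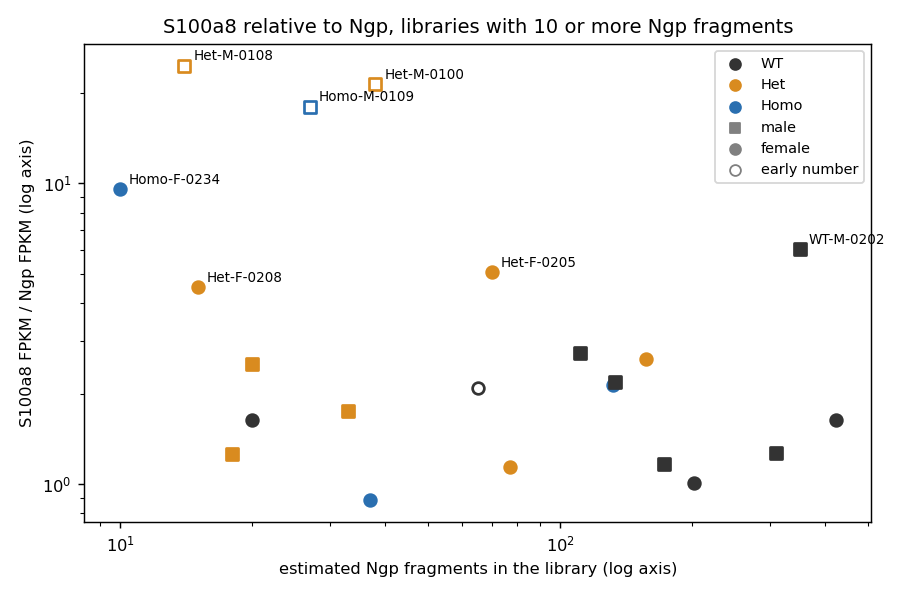
Ratio of *S100a8* to *Ngp* FPKM against the estimated number of *Ngp* fragments in the 22 libraries with at least 10, both on log axes. Colours are genotypes, squares are males, circles are females and open symbols are early mouse numbers. The 3 males with early numbers lie at 18.0 to 24.6, above every other library.

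Other neutrophil genes were taken from a list of 36, of which 17 were tested and 6 were 0 in every library (*Prtn3*, *Ctsg*, *Prss57*, *Stfa1*, *Stfa2* and *BC100530*). *Mpo*, the azurophil peroxidase, averaged 0.00994 FPKM. *Csf3r*, the G-CSF receptor, had the highest level of the list, with group medians of 200.5 to 231 FPKM, and was 197.3 to 237.7 FPKM in the 3 libraries without any member. *Ly6g*, the surface marker of mature neutrophils, was above 0 in 6 libraries, namely 4 of 5 WT males, WT-F-0192 and Het-F-0257, and in none of the 11 Het and Homo males. Its highest level was 0.511 FPKM in WT-F-0192, which also had the highest *Ngp*. By contrast *Pglyrp1*, on the same list, was above 0 in all 5 WT and all 6 Het males and in 4 of 5 Homo males. It ranged from 0.292 to 1.98 FPKM in WT, 0.0941 to 1.26 FPKM in Het and 0 to 0.417 FPKM in Homo males. In females 0 of the 17 passed the adjusted limma test in Homo against WT, Het against WT or Homo against Het. In that order, 0.071%, 0.13% and 0.0118% of all genes passed it. An unadjusted limma p below 0.05 was found for 4, 5 and 1 of the 17, as 3.49%, 3.95% and 2.06% of all genes had. The median was -0.11 in Homo against WT females. In the male Homo comparison, given without a test, the median of the 17 was -1.35. There 10 of 17 were more than 1.5-fold lower, with 5.53% of all genes. Another 3 were more than 1.5-fold higher, for which no share of all genes is given.

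The genes most like the members, by Pearson's r with their mean log2 level over 30 libraries, were *Anxa1* (r = 0.88), *Wfdc21* (r = 0.78), *Cd177* (r = 0.76), *Hp* (r = 0.74) and *Lrg1* (r = 0.73), all 5 on the list of other neutrophil genes, followed by *Gfer*, *Ifitm6*, *Sult1a1*, *Eid2* and *Ankrd10* (r = 0.65 to 0.68). *Anxa1*, which encodes annexin A1, was 0.513 to 3.68 FPKM in WT males, was above 0 in 4 of 6 Het males and was above 0 in Homo-M-0109 alone among Homo males, at 0.355 FPKM. *Cd177*, a surface protein of neutrophils, was 0.259 to 0.697 FPKM in WT males and 0 in all 5 Homo males. Over the 14 female libraries the order was different, led by *Cd209f*, *Dedd*, *Gm19680*, *Kmt5c* and *Mndal* (r = 0.83 to 0.87), then *Hist1h1d*, *Wbp4*, *Gm26514*, *Hp* and *Gm44834* (r = 0.80 to 0.82), and only *Hp* was on the neutrophil list. *Cd209f*, the most similar gene in females, is on the list of border macrophage markers, and it was 0.756 to 2.95 FPKM in WT, 0.0873 to 1.95 FPKM in Het and 0.0927 to 2.26 FPKM in Homo females. These r are descriptions over many genes.

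Markers of other cells were followed beside the members. The sum of the 8 markers of border macrophages, which line the vessels and membranes of the brain, was mostly *Stab1*. This sum had r = 0.59 with *Ngp* in females and 0.17 over all 30 libraries. The 7 others, a split chosen after their values were seen, had r = 0.78 with *Ngp* in females and 0.61 over all 30 libraries. The 7 summed to 12.5 to 37.6 FPKM in WT males, 9.89 to 14.9 FPKM in Het males and 9.02 to 16.4 FPKM in Homo males, with medians of 24.96, 13.01 and 13.99 FPKM. Their medians in females were 18.3 FPKM in WT, 11.2 FPKM in Het and 12.5 FPKM in Homo mice, so WT had the highest median in both sexes, as for *Ngp*. All 8 markers were detected in every library. The median log2 fold change of the 8 was -0.34 in Homo and -0.36 in Het against WT females. In both, 0 of 8 passed the adjusted limma test, which 0.071% and 0.13% of all genes did. An unadjusted limma p below 0.05 was found for 1 and 2 of the 8, as 3.49% and 3.95% of all genes had. Against WT males the median of the 8 was -0.87 in Homo and -1.10 in Het males. The sum of the other neutrophil genes, most of it from *Csf3r*, had r = -0.07 with *Ngp* in females and -0.21 over all libraries. Without *Csf3r*, a split also chosen after values were seen, r was 0.67 in females and 0.38 over all libraries. The 10 monocyte genes, led by *Ccr2*, summed to 5.79 to 15.5 FPKM with group medians of 7.76 to 9.97 FPKM, and their sum had r = 0.04 with *Ngp* in females. The choroid plexus list, led by *Ttr*, summed to 0.581 to 451 FPKM in WT males, 2.83 to 27.9 FPKM in Het males and 0.845 to 31.6 FPKM in Homo males, with 10 of 10 genes detected. Its sums in females were 0.850 to 209 FPKM in WT, 0.157 to 2.63 FPKM in Het and 0.439 to 3.62 FPKM in Homo mice, and r with *Ngp* was 0.43. The erythroid list, led by *Hba-a2*, summed to 0 to 61.9 FPKM in WT, 0.392 to 143 FPKM in Het and 15.8 to 112 FPKM in Homo males. Its lowest and highest sums were lower in WT than in Homo males, opposite in order to the members, but the ranges overlapped. In females it summed to 30.3 to 197.1 FPKM in WT, 0 to 17.2 FPKM in Het and 0 to 22.02 FPKM in Homo mice. There the WT range lay above the Het and Homo ranges, and WT was highest, as for the median of *Ngp*. The part of these cells in the levels of the members was not tested.

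Factors known to regulate granule genes were also listed. *Spi1*, which encodes PU.1, had group medians of 177.6 to 204 FPKM. *Cebpa*, a C/EBP factor of the myeloid lineage, had a median of 56.9 FPKM in WT, 39.6 FPKM in Het and 36.0 FPKM in Homo males, in the order of the members, and 50.0, 46.4 and 47.7 FPKM in WT, Het and Homo females. *Cebpb* had medians of 59.8 FPKM in WT, 45.2 FPKM in Het and 41.5 FPKM in Homo males, but 51.6, 51.9 and 55.7 FPKM in WT, Het and Homo females, with WT the lowest. *Cebpe*, the factor of specific granule formation, was 0 in 14 of 30 libraries and reached 0.167 FPKM at most. The 10 regulators, which include *Csf3r* and are led by *Irf8*, summed to 735 to 866 FPKM, and the sum had r = 0.01 with *Ngp* over the 14 females. In each female comparison 0 of the 8 tested regulators passed the adjusted limma test. Of all genes, 0.071% passed it in Homo against WT, 0.13% in Het against WT and 0.0118% in Homo against Het females. The part of these factors in the levels of the members was not tested.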

How the data were processed

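RNA of microglia from 30 mice was sequenced by the authors as paired reads of 50 bases, aligned to mm10 with OSA4 and quantified with RSEM, per the paper's methods and the labels, and FPKM were deposited without a logarithm. The sample labels also carry a protocol for cultured microglia and another library kit, and the methods of the paper were followed where they differ. The authors' DESeq2 fit on counts was not repeated, and 6 columns of the table that match no listed sample were not used. Groups come from the sample titles.

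Libraries were scaled by median-of-ratios factors, taken from genes whose mean reached 1 FPKM. For the 16897 genes whose mean reached 0.1 FPKM, log2(FPKM + 0.1) was fitted with limma 3.58.1 in R 4.3.3 over all 6 groups, with an intensity trend and Benjamini-Hochberg adjustment over all genes tested. Genes were called where the adjusted p was under 0.05 and the change exceeded 1.5-fold. Exact and permutation tests used Python 3.11.15 and scipy 1.17.1, with 100000 resamples per correlation. The fit was tested on simulated data. Fragments were read back from FPKM by transcript length for 7 members, whose low values were whole within 0.06 fragments, with the total per library set from 600 genes of a single transcript. *Lcn2*, *Chil3* and *Ltf* gave no whole fragments for all values, and their limit at 0 is not given. Depth limits and counts cover counting error only. The p-values of the main limma fit rest on a spread between mice taken over all 6 groups, and the exact tests on the mice of the 2 groups compared. The permutation p-values of the correlations refer to the association of 2 genes over the female libraries.

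The members, lists and tests were chosen with earlier results of these data known. Genes named are the members, the highest gene of each list, *Bin1* and *Cx3cr1*. So are the 10 other genes most like the members over all and over female libraries. *Ly6g*, *Pglyrp1*, *Mpo*, *Spi1*, *Cebpa*, *Cebpb*, *Cebpe* and the list genes at 0 were named after their values were seen. Pseudocounts, filters, scalings, array weights, mouse number ranges and left-out libraries were tried as alternatives. Promoter windows come from RefSeq on GRCm38.p6.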

Additional observations from a re-analysis of the deposited data

Results flagged for a closer look

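In 24 of 53 sets of a gene and a group, a single library lay farther from its neighbour than Dixon's critical value allows for the group's range, where chance gives about 1 in 20 for values without many zeros. In 5 of the 24 a single library was above 0, so that the gap was the whole range by construction, which leaves 19 of 48 sets. Many of the others hold zeros too, so the rate of 1 in 20 is no measure for them, and a few libraries account for most of the sets. All values are FPKM, with the next highest library after each.

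Among Homo males the library was Homo-M-0109 each time. It had *Ngp* at 2.42 (next 0.0923), *Lcn2* at 0.239 and *Chil3* at 1.07 (each the only library above 0), *S100a8* at 43.5 (next 3.41), *S100a9* at 24.6 (next 0.882) and *Camp* at 9.54 (next 0.397).

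Among Het males it was Het-M-0100 for *Lcn2* at 1.80 (next 0.626), *Chil3* at 5.17 (next 0.496), *S100a8* at 92.7 (next 31.5), *Camp* at 16.7 (next 2.06), *Ltf* at 2.03 (next 0.408) and *Elane* at 0.152 (1 fragment, the only library above 0). It was Het-M-0108 for *Mmp8* at 0.182 (the only library above 0).

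Among WT males WT-M-0202 had *S100a8* at 149 (next 33.04), *S100a9* at 123 (next 30.5) and *Camp* at 39.4 (next 8.01), and WT-M-0176 had *Mmp8* at 0.294 (next 0.0700).

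Among Homo females Homo-F-0228 had *Ngp* at 12.7 (next 3.04), *Chil3* at 2.61 (next 0.652), *S100a8* at 27.2 (next 7.79), *S100a9* at 22.1 (next 6.04) and *Camp* at 4.202 (next 1.06). *Mmp8* stood out at 0.0392 in WT-F-0192 (the only library above 0) and at 0.482 in Het-F-0208 (next 0.0840).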

How the results depend on the processing

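No paired analysis was possible because every mouse number belongs to a single library. The count of members called in females was 0 under every alternative run, all exact tests stayed above 0.05 without the library labelled Het-F-0206 and with late numbers alone, and the median r of the 28 pairs was 0.827 to 0.869. The members more than 1.5-fold lower numbered 7 to 9 in Homo males, counting *Retnlg* and *Mmp8*, which are at 0 in every Homo male, and 7 to 8 in Het males. Of the members' log2 fold changes under other settings, 416 counted as unchanged and 9 turned in sign. Another 10, in male comparisons, kept their sign but moved by more than the spread between mice. That rule was applied to male comparisons only. Female estimates were judged on sign and call, so they could move further and still count as unchanged.

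*Retnlg* turned to -0.14 in Homo against WT females with late numbers only, to -0.0154 with a pseudocount of 1 and -0.33 with late numbers in Het against WT females, and to -0.34 with a pseudocount of 0.01 and -0.16 without the library labelled Het-F-0206 in Homo against Het females. In Het against WT males it turned to -0.0298 with a pseudocount of 1, -0.24 with the number range as a covariate and -1.01 with late numbers. *S100a8* turned to 0.0647 in Homo against Het females with a pseudocount of 0.01. The cause was not tested.

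Leaving out each library in turn gave, for Homo against WT females, *Retnlg* at -0.45 to 0.92, *Lcn2* at -1.92 (without WT-F-0207) to -0.26 (without WT-F-0192), and, from leaving out WT-F-0207 to leaving out Homo-F-0193, *S100a8* at -2.37 to -0.73, *S100a9* at -2.71 to -0.66 and *Ltf* at -1.96 to -0.46. For Het against WT females it gave *Lcn2* at -1.17 to 0.49, *S100a8* at -1.88 to 0.31, *S100a9* at -2.05 to 0.17 and *Retnlg* at -0.33 to 0.73. For Homo against Het females it gave *Chil3* at -1.16 to 0.19, *S100a8* at -1.93 to 0.40, *S100a9* at -2.04 to 0.55, *Ltf* at -0.48 to 1.05 and *Retnlg* at -0.55 to 0.58, and for Het against WT males *Retnlg* at -0.38 to 0.75.

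Over all genes the calls moved more. Homo against WT males had 306 calls, 480 with array weights, 186 without a filter, 82 with those groups alone, 35 with the number range as a covariate and 9 with late numbers. Leaving out a library moved it from 77 (Homo-M-0093) to 822 (Homo-M-0189), with more than a 1.5-fold change also for Homo-M-0097, Homo-M-0109, WT-M-0176, WT-M-0177, WT-M-0178 and WT-M-0202 (99 to 596). Het against WT males had 26, and 14, 16, 12 and 4 with array weights, the covariate, late numbers and those groups alone, and 12 (without WT-M-0178) to 57 (without WT-M-0258) when a library was left out. Homo against WT females had 12, with 36 under array weights and 21 with those groups alone, and Het against WT females had 22, with 63 under array weights, 12 with late numbers and 9 both without the library labelled Het-F-0206 and with those groups alone. Homo against Het females had 2, and 0 to 2 elsewhere. Leaving out a library gave 7 to 11 calls in Homo and 9 to 26 in Het against WT females.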
